A study of Mus musculus with 6 samples.

Results

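The Nme genes encode nucleoside diphosphate kinases, enzymes that pass a phosphate from one nucleoside triphosphate to the diphosphate of another and so keep the pools of GTP, CTP and UTP supplied from ATP. The signals of these genes were followed in mouse retina at postnatal day 4, in 3 Nhlh2 knockout and 3 wildtype samples, each on 1 Affymetrix Mouse 430A 2.0 array. The animals were 3 pairs of littermates of mixed C57/129 background, 1 knockout and 1 wildtype in each pair. Every sample was total RNA of dissected whole retina that had been frozen, and the knockout allele was not described in the sources used here. The members were all probe sets whose only gene symbol was Nme1, Nme2, Nme3, Nme4, Nme6 or Nme7. This gave 6 probe sets of 5 genes, out of 22690 probe sets on the array. Nme3 had no probe set of its own, because the annotation pairs its probe set with Mrps34 as well, and it was given no value.

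Nme1 and Nme2 are closely related cytosolic enzymes that assemble into hexamers, and Nme1 is known as a suppressor of metastasis. Nme4 is a mitochondrial enzyme, Nme6 is also found in mitochondria and is weakly active, and Nme7 is a component of the gamma-tubulin ring complex at centrosomes and cilia. The early postnatal retina contains both dividing progenitors, which draw on nucleotide pools for DNA synthesis, and newly formed neurons. Nhlh2 is a helix-loop-helix transcription factor of developing neurons, of a class that binds E-box sequences with the letters CANNTG.

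The family was examined because of one probe set. It was chosen by its p-value: the Nme1 probe set 1435277_x_at had the smallest of all probe sets when knockout and wildtype were compared on the signals as deposited. All differences between knockout and wildtype samples given here for Nme genes come from that same comparison, so they are a description and carry no test. A suffix x_at marks a probe set in which some probes are identical or highly similar to other sequences, while a_at marks a probe set that matches several transcripts of one gene. Nme1 is represented by 1 probe set of each kind, 1435277_x_at and 1424110_a_at.

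The array of knockout replicate 2 stood apart from the rest. Its median signal was 9.0, against 51.4 to 95.6 in the other 5 arrays, and its Actb control gave a 3′ to 5′ ratio of 274, against 1.38 to 1.56. Spearman's rho of this array with the others was 0.642 to 0.669 over all probe sets, compared with 0.947 to 0.975 among the other 5. For this reason the main values are given with and without it. Of 15 measured marker genes of retinal cells, 14 were above the array's median in every array. Lens markers were above it for 4 of 10 genes in knockout replicate 2, for 7 of 10 in wildtype replicate 1 and for 0 of 10 in the other 4 arrays, with summed signals of 7.44, 89.2 and at most 2.33 array medians. Pigment epithelium markers were above the array's median for 6 or 7 of 9 measured genes in every array. Their summed signals ran from 59.6 array medians in knockout replicate 1 to 128 in knockout replicate 2. With a median of 9.0, counts and sums set against the median of knockout replicate 2 can rest on low signals. The deposited signal of the lens marker Cryaa was 3.9 in that array, against 2566.9 in wildtype replicate 1. That of the pigment epithelium marker Rpe65 was 1.2 in knockout replicate 2. The part of these differences in the results was not tested. Nhlh2 is paired with no probe set here, so the knockout could not be checked on its own transcript.

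Nme1 and Nme2 lie next to each other on chromosome 11, on the same strand, with 0 other annotated genes starting between them. The windows from 250 bases before to 50 bases after their more upstream RefSeq start sites are shown because Nhlh2 belongs to the E-box binding factors. Capitals mark each match to CANNTG, which reads the same on both strands. Coordinates are those of GRCm38.p6, and the sequences run 5′ to 3′ along the minus strand, on which both genes lie.

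Nme1 (chr11:93968223-93968522): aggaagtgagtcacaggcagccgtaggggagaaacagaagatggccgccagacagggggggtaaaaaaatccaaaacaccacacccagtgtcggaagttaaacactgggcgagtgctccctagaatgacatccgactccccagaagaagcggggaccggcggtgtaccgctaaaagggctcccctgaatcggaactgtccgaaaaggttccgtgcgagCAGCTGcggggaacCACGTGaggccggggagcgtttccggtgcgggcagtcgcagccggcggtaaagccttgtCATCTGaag
Nme2 (chr11:93956207-93956506): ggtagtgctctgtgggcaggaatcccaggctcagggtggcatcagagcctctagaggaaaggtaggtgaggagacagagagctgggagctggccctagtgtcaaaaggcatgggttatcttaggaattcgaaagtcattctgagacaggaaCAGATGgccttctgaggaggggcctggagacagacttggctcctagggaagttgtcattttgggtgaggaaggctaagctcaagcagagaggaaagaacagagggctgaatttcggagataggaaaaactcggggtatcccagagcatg

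The Nme1 window holds 3 matches, among them 1 CAGCTG and 1 CACGTG. The window of the other Nme1 start site, which overlaps it, holds 2 matches, 1 of them CACGTG and 0 CAGCTG. Of 32851 windows of this length over all genes, 72.3% hold CANNTG, 16.3% hold CAGCTG and 7.15% hold CACGTG. The Nme2 window holds 1 match, and the window of its other start site holds 0. The windows of Nme4 and Nme7 hold 0 and that of Nme6 holds 1. These are matches of letters, and nothing about binding of the factor was measured.

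Nme1 was well above the middle of every array on both of its probe sets. On the a_at probe set the deposited signals were 1225.8, 227.5 and 1113.9 in knockout replicates 1, 2 and 3, against 1303.6, 1448.6 and 982.2 in wildtype replicates 1, 2 and 3. On the x_at probe set they were 647.8, 135.2 and 386.5 in the knockout samples, against 1264.5, 2199.6 and 1987.6 in the wildtype samples. The arrays had not been scaled to each other, so most values in knockout replicate 2 are low as deposited, and signals were next set on a common scale by quantile normalization.

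The normalized signal on the x_at probe set of Nme1 was 458, 747 and 320 in knockout replicates 1, 2 and 3, against 872, 1331 and 1492 in the wildtype replicates. Every knockout value was below every wildtype value. The mean on the log2 scale was 8.91 ± 0.61 in the knockout samples and 10.23 ± 0.41 in the wildtype samples (SD, n = 3 each), a difference of -1.33 (SE 0.42), or 0.399-fold. Of 11603 probe sets kept, 3.31% had all knockout values below all wildtype values. By the p-value of the fit this probe set ranked 2 among the 11603, and 1 on the signals as deposited, which is how it was chosen. The rank moved with the arrays and the processing, and widely in some settings. It was 264, 1 and 46 without knockout replicates 1, 2 and 3, and 1, 6 and 13 without wildtype replicates 1, 2 and 3. Centring on the 75th percentile gave 33, centring on the median 2, and a common trimmed mean 4. With the littermate pair as a block it was 7, and 5 when knockout replicate 2 was also left out. A constant of 16, an intensity trend and a filter for signals above the median in all 6 arrays each gave 1. With no filter on dim probe sets it was 271 of 22626.

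The other Nme1 probe set did not show this. On the a_at probe set the normalized signal was 939, 1068 and 937.5 in knockout replicates 1, 2 and 3, against 901.5, 821 and 759.5 in the wildtype replicates. Here every knockout value was above every wildtype value, which was so for 2.87% of all probe sets kept. The difference was small, at 0.25 on the log2 scale (SE 0.26) or 1.19-fold, and it ranked 5753 by its p-value. The 2 probe sets annotated to Nme1 thus differed in direction. Across the 6 arrays their normalized log2 values had a Pearson r of -0.637, and of -0.891 over the 5 arrays without knockout replicate 2, both as descriptions.

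**Figure D1:**
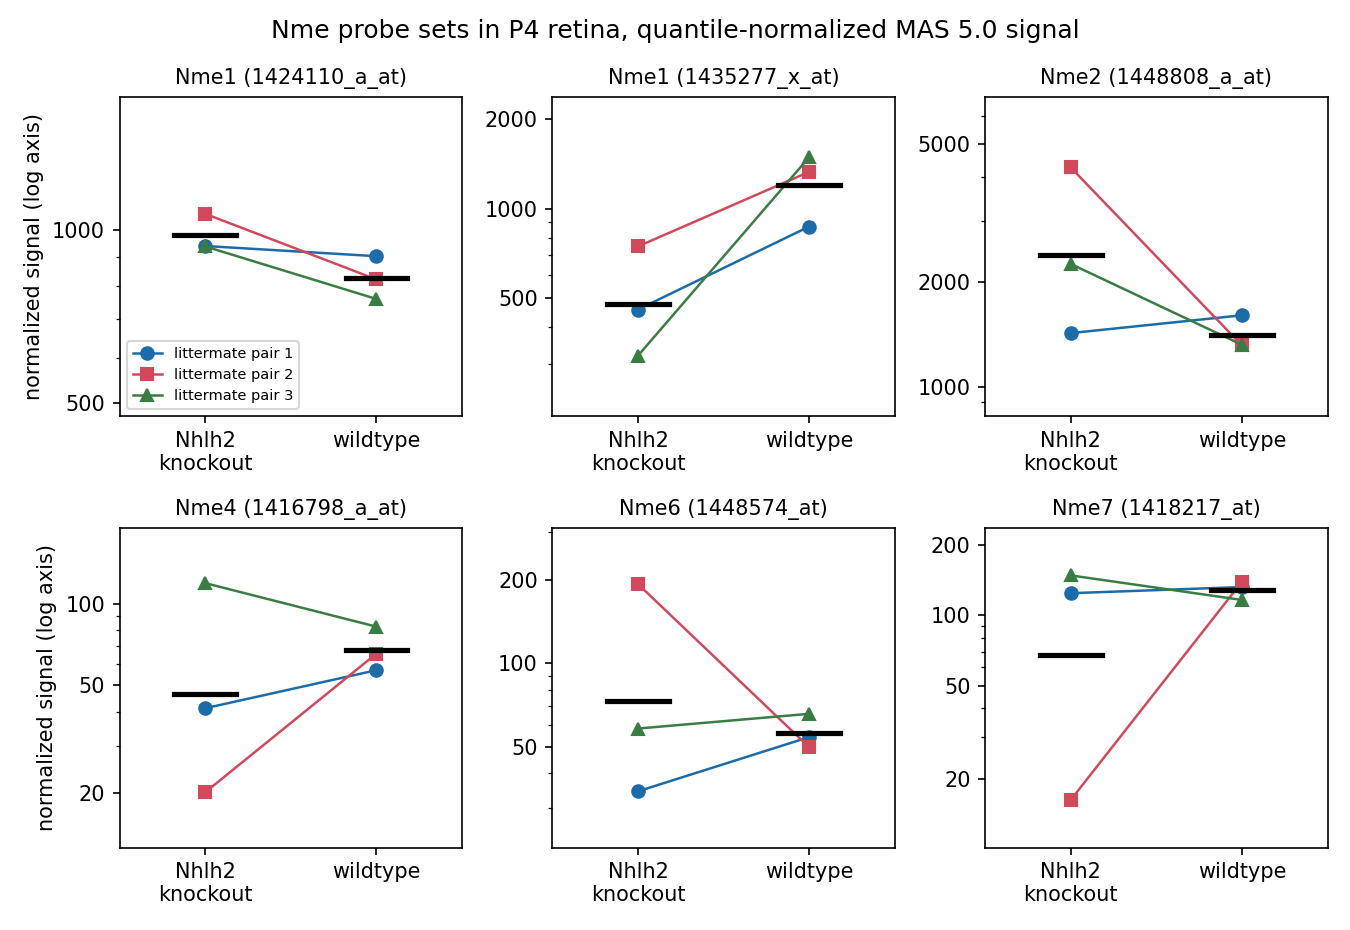
Quantile-normalized signal (log axis, each panel with its own range) of the 6 Nme probe sets in Nhlh2 knockout (left) and wildtype (right) retinas, with littermates joined by a line and the mean of log2 values as a black bar. On the Nme1 x_at probe set all 3 lines are lowest at the knockout end, while on the a_at probe set of the same gene none is. For Nme2, Nme6 and Nme7 knockout replicate 2 (red square) lies far from the other knockout arrays, and for Nme4 all 3 knockout arrays are spread out.

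A ratio of 2 probe sets within an array does not depend on how arrays are scaled. The ratio of the x_at to the a_at probe set of Nme1 was 0.528, 0.594 and 0.347 in knockout replicates 1, 2 and 3, against 0.970, 1.52 and 2.02 in the wildtype replicates. The groups did not overlap, and knockout replicate 2 was the highest of the knockout samples. The numerator is the probe set chosen by its p-value on these arrays, so this separation is a description. Among 1695 genes with exactly 2 probe sets kept, such a ratio did not overlap between the groups for 6.43%, and without knockout replicate 2 for 12.6% of 1679 genes. The size of a ratio has no meaning of its own, since probes differ in how strongly they bind, and only its difference between arrays is read here.

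The shift of this ratio differed in size between littermate pairs. As knockout minus wildtype littermate on the log2 scale it was -0.88 in pair 1, -1.35 in pair 2 and -2.54 in pair 3. In pairs 1 and 3 it was beyond the 95th percentile of absolute shifts over the 1695 genes, which was 0.72 and 1.05, with 38 and 2 genes showing a larger one. In pair 2 the median absolute shift over all genes was 1.58, and 956 genes had a larger shift than Nme1. Pair 2 holds the array that stands apart, and there the shift of Nme1 was below the median of all genes. Since the x_at probe set was chosen by its p-value on these same arrays, the place of Nme1 among the genes is a description in each pair.

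**Figure D2:**
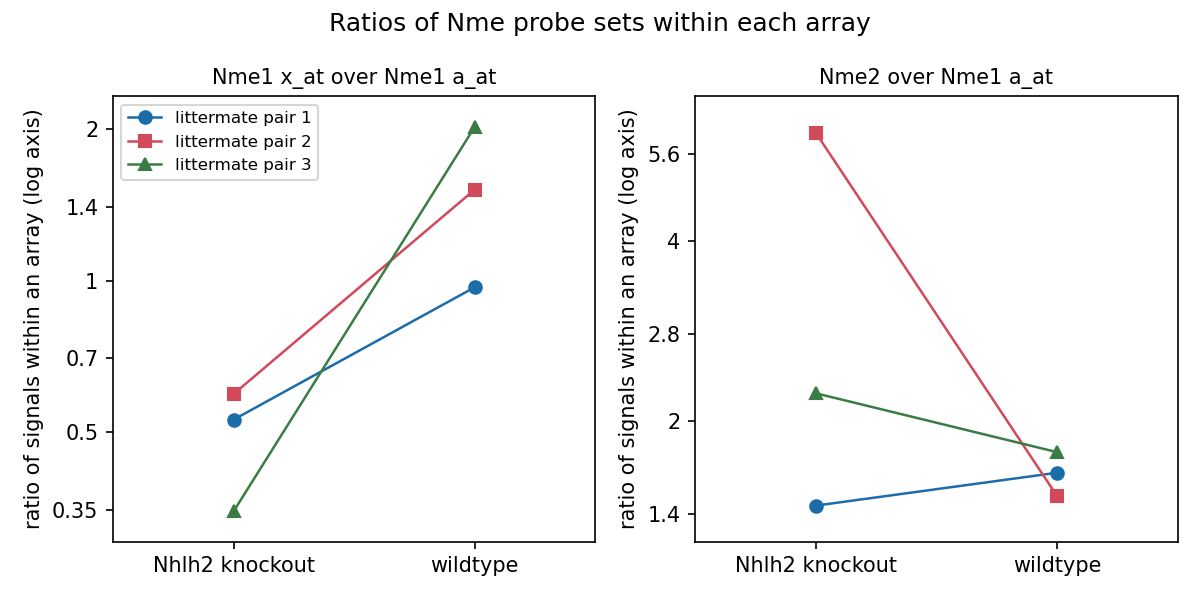
Ratio of signals within each array (log axes) for the x_at over the a_at probe set of Nme1 (left) and for Nme2 over the Nme1 a_at probe set (right), 1 point per array with littermates joined. The first ratio is 0.347 to 0.594 in the 3 knockout samples and 0.970 to 2.02 in the 3 wildtype samples, while the second overlaps between the groups.

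Over all genes with more than 1 probe set kept, the gap between probe sets of a gene in the difference of knockout and wildtype shows how often such disagreement occurs. For Nme1 the gap was 1.57 on the log2 scale, compared with a median of 0.76 over 2548 genes, and 415 genes had a larger gap. Without knockout replicate 2 the gap of Nme1 was 1.70 and the median 0.21, and 3 of 2492 genes had a larger one. A gap of this size was thus shared by many genes with that array included and by few without it. Nme1 was chosen through its x_at probe set on these same arrays, so its place among the genes is a description.

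Leaving out knockout replicate 2 kept the contrast between the Nme1 probe sets. After normalization of the remaining 5 arrays, the x_at probe set had 665 and 470.5 in knockout replicates 1 and 3, against 1210, 1787 and 1976 in the wildtype replicates, a log2 difference of -1.54 (SE 0.28) or 0.345-fold. On the a_at probe set the values were 1296 and 1294 in the knockout samples, against 1249, 1146 and 1067 in the wildtype samples, with a difference of 0.17 (SE 0.17) and a rank of 2426 by its p-value. In these 5 arrays 5.26% of 11315 probe sets had all knockout values below all wildtype values, and 5.84% had them above.

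The wildtype arrays alone also separated the probe sets. On the Nme1 x_at probe set the highest wildtype value was 1.71 times the lowest, and the SD of log2 values was 0.41, larger than that of 80.9% of probe sets. On the a_at probe set the corresponding values were 1.19 times and 0.12, with 21.6% of probe sets showing a smaller SD. The lowest of the wildtype values on the x_at probe set, that of replicate 1, was the nearest to the knockout samples. That replicate is also the one with high lens markers.

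Nme2, the neighbour and closest relative of Nme1, had no lower signal in the knockout samples as a group. Its deposited signals on 1448808_a_at were 1771.4, 1383.6 and 2482.2 in knockout replicates 1, 2 and 3, against 2138.1, 2174.5 and 1744.0 in the wildtype replicates. After normalization they were 1425, 4269 and 2253 in the knockout samples, against 1603, 1313 and 1319 in the wildtype samples, so the groups overlapped. The log2 difference was 0.77 (SE 0.45), or 1.70-fold, and it was 0.32 (SE 0.24), or 1.25-fold, without knockout replicate 2. Within littermate pairs it was -0.17 in pair 1, 1.70 in pair 2 and 0.77 in pair 3. In knockout replicate 2 the deposited signal of Nme2 stood at 154 times the array's median, compared with 22.7 to 48.3 times in the other 5 arrays.

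The ratio of Nme2 to the Nme1 a_at probe set was 1.44, 6.08 and 2.23 in knockout replicates 1, 2 and 3, against 1.64, 1.50 and 1.78 in the wildtype replicates. The wildtype values lay close together and inside the range of the knockout values. The ratio of the Nme1 x_at probe set to Nme2 was 0.366, 0.0977 and 0.156 in the knockout samples, against 0.591, 1.01 and 1.14 in the wildtype samples, and its numerator is the probe set that was chosen for its low knockout values. Since x_at probes can bind related transcripts and the probe sequences were not used here, how much of this signal comes from Nme1 itself was not tested.

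The mitochondrial kinase Nme4 lay near the middle of the arrays. Its deposited signals on 1416798_a_at were 56.7, 4.5 and 138.9 in knockout replicates 1, 2 and 3, against 89.2, 127.9 and 101.1 in the wildtype replicates, above the array's median in 4 of 6 arrays. The normalized values were 41.2, 20.2 and 119 in the knockout samples, against 56.9, 65.5 and 82.3 in the wildtype samples. The wildtype values lay within the range of the knockout values, and the pairs differed in direction, with -0.46, -1.65 and 0.53 on the log2 scale in pairs 1, 2 and 3. The log2 difference of -0.52 (SE 0.65) became 0.06 (SE 0.47) without knockout replicate 2.

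Nme6 was also close to the array's median, with deposited signals on 1448574_at of 46.4, 26.2 and 62.5 in knockout replicates 1, 2 and 3, against 84.1, 97.0 and 79.1 in the wildtype replicates. The normalized values were 34.4, 194 and 58.1 in the knockout samples, against 54.1, 49.7 and 65.7 in the wildtype samples. Knockout replicate 1 was the lowest of the 6 and knockout replicate 2 the highest. The log2 difference was 0.38 (SE 0.64), and -0.35 (SE 0.29) without knockout replicate 2, so its sign rested on that array. In pairs 1, 2 and 3 it was -0.64, 1.94 and -0.18.

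Nme7, the centrosomal and ciliary member, had steady signals in 5 arrays. On 1418217_at they were 182.0, 3.5 and 175.6 in knockout replicates 1, 2 and 3, against 214.2, 277.2 and 146.9 in the wildtype replicates. The normalized values were 124.5, 16.2 and 148 in the knockout samples, against 132, 139 and 116.5 in the wildtype samples. Without knockout replicate 2 the log2 difference was 0.08 (SE 0.19), whereas with it the difference was -0.92 (SE 0.84).

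**Figure D3:**
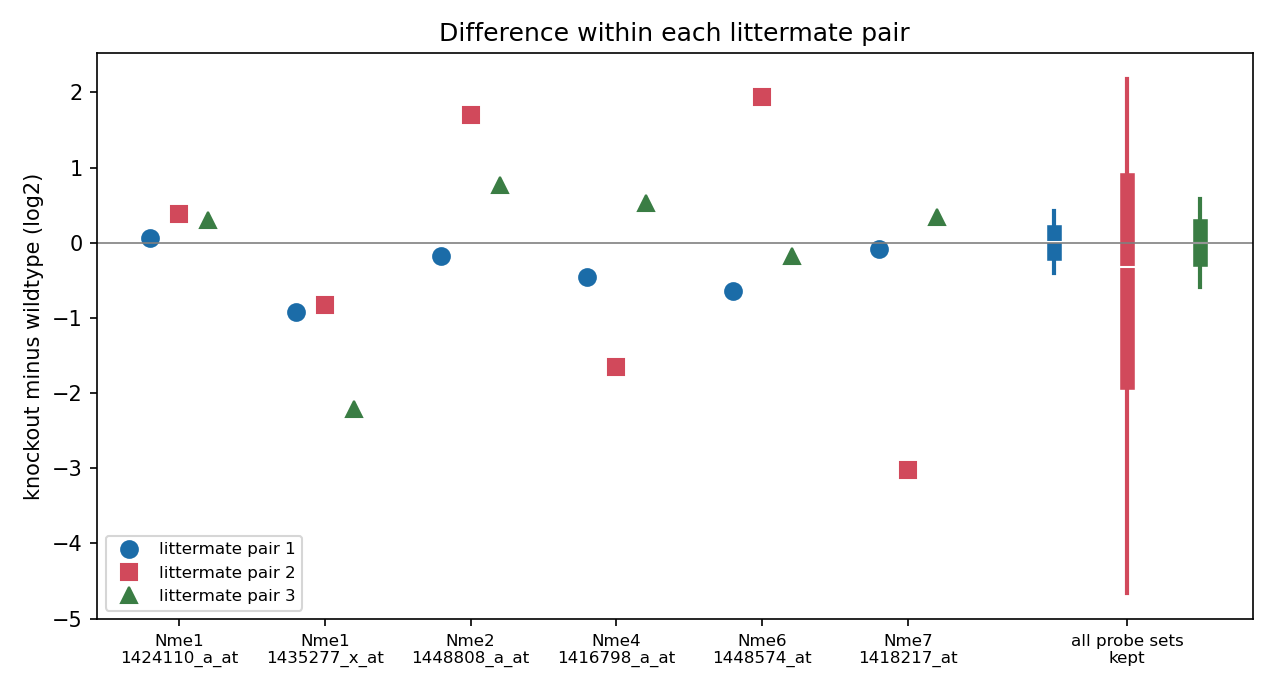
Difference of knockout and wildtype littermates (log2 of normalized signal) for each Nme probe set in pairs 1, 2 and 3, and for all 11603 probe sets kept (right: thick bar from the 25th to the 75th percentile, thin line from the 5th to the 95th, white mark at the median). Of the 6, only the Nme1 x_at probe set, which was chosen by its p-value on these arrays, is below 0 in all 3 pairs. Pair 2 has by far the widest spread over all probe sets.

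Within littermate pairs, the x_at probe set of Nme1 was lower in the knockout in 3 of 3 pairs. Its differences were -0.93, -0.83 and -2.22 on the log2 scale in pairs 1, 2 and 3. Of all 11603 probe sets kept, 48.3%, 56.5% and 49.6% were below 0 in pairs 1, 2 and 3, and the share below 0 in all 3 was not counted. The probe set was chosen by its p-value on these same arrays, so its direction and its place among other probe sets are a description. In pair 1 the 5th and 95th percentiles over all probe sets kept were -0.40 and 0.42, and in pair 3 they were -0.59 and 0.59. In pair 2 they were -4.67 and 2.18, so the value of Nme1 there was well inside the range of other probe sets. On the a_at probe set the differences were 0.06, 0.38 and 0.30. In pair 1 Nme4 and Nme6 were also below the 5th percentile, and Nme2 and Nme7 were below 0. Each of these 4 was above 0 in at least 1 other pair. The relatives of Nme1 thus shared the direction of the Nme1 x_at probe set in pair 1 but not in all pairs.

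Counted over all probe sets, 0 of 11603 passed an adjusted p of 0.05 between knockout and wildtype samples (limma with Benjamini-Hochberg adjustment), a background of 0%, and 0 of the 6 Nme probe sets passed. The smallest adjusted p was 0.742. At an unadjusted p of 0.05, 14 probe sets passed, or 0.121%. Without knockout replicate 2, 0 of 11315 probe sets passed after adjustment and 92 at an unadjusted p of 0.05, or 0.813%. When the littermate pair was also a block in that fit, 0 passed after adjustment and 371 of 11315 at an unadjusted p of 0.05. Without knockout replicate 1, and without the block, the unadjusted count was 284. Shares of 0.121% and 0.813% lie far below the fraction of 0.05 expected on average with no differences. The count of 0 thus does not show that the groups were alike. Because samples were whole retinas, fewer cells that use a gene and less RNA per cell cannot be told apart.

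The enzymes that make, interconvert and remove nucleotide precursors were examined beside the Nme genes. Of 43 such genes 37 had a probe set of their own, and 35 were kept, each on the probe set of its highest mean. None of these passed the test (0 of 35), with 10 higher and 25 lower in the knockout samples. The median log2 difference was -0.37, against -0.11 over all probe sets kept, of which 43.0% were higher. Without knockout replicate 2 the list was evenly divided, 17 higher and 17 lower, with a median of 0.01 against 0.00 over all probe sets, so its lower median rested on that array.

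The lowest differences were those of Cmpk1, which phosphorylates UMP and CMP to the diphosphates that Nme enzymes use, with -2.73 (SE 2.17), Prps1, which makes the ribose phosphate donor, with -2.36 (SE 1.85), and Rrm1, the large subunit of ribonucleotide reductase, with -2.08 (SE 1.87). Paics, of purine synthesis, had -1.44 (SE 1.09) and Dut, which removes dUTP, -1.25 (SE 1.09). Without knockout replicate 2 these 5 genes had -0.05, -0.09, 0.09, -0.14 and 0.05 in the same order. The normalized signal of Cmpk1 was 736, 1.7 and 668 in knockout replicates 1, 2 and 3, against 781, 744 and 656.5 in the wildtype replicates, so that a single array was low, as for Nme7.

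The highest differences were those of Ctps, which makes CTP from UTP, with 0.64 (SE 0.34), Nudt1, which removes oxidised purine triphosphates, with 0.62 (SE 0.57), Samhd1, which breaks down deoxynucleotides, with 0.47 (SE 0.33), Dhodh, of pyrimidine synthesis, with 0.40 (SE 0.35) and the mitochondrial adenylate kinase Ak4 with 0.36 (SE 0.26). Ak4 was the 1 gene of 35 whose groups did not overlap, a share close to the 2.87% of all probe sets that were higher without overlap, with normalized signals of 78.5, 102.5 and 92.9 in the knockout samples, against 68.1, 72.8 and 71.4 in the wildtype samples. Without knockout replicate 2 Ctps kept 0.45 and Ak4 0.28, while Nudt1 had -0.01 and Dhodh 0.10, and Samhd1 no longer passed the filter on dim probe sets. The highest of the list was then Tk1, the thymidine kinase of dividing cells, with 0.57, against -0.52 (SE 0.93) with all 6 arrays. As normalized over the 6 arrays, Tk1 had 127, 16.9 and 216 in knockout replicates 1, 2 and 3, against 150, 102.5 and 92.8 in the wildtype replicates. Only knockout replicate 3 was above all wildtype values, and the difference was -0.24 in pair 1 and 1.21 in pair 3.

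**Figure D4:**
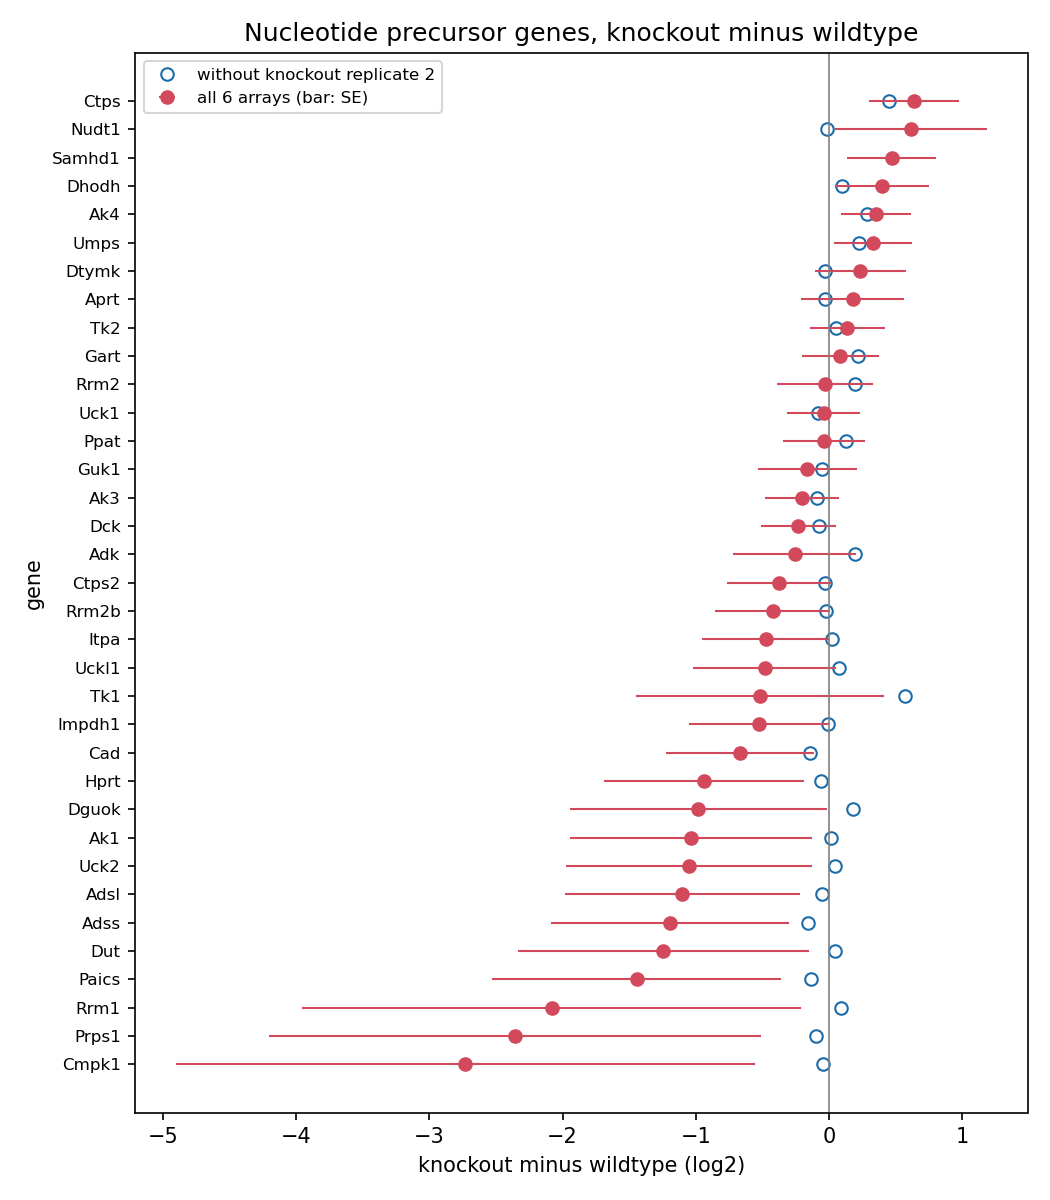
Knockout minus wildtype difference (log2) of 35 genes of nucleotide precursor metabolism, with all 6 arrays (filled, bar: SE) and without knockout replicate 2 (open). The 5 lowest genes, down to -2.73 for Cmpk1, lie between -0.14 and 0.09 without that array, and Tk1 is then the highest at 0.57.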

How the data were processed

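The authors processed the arrays with the Affymetrix MAS 5.0 algorithm and deposited 1 linear intensity per probe set, corrected for background and mismatch signal and not scaled between arrays. Arrays have no depth, and 3 samples a group limit the precision. Present calls and the scaling target were not used here. Probe sets were named from GEO's platform annotation, in which 20380 had 1 gene symbol, 691 several and 1555 none, apart from 64 controls, and 0 symbols changed when updated through RefSeq gene IDs. Promoter windows came from RefSeq, with a match for all 5 genes.

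Intensities were quantile normalized as log2(signal + 1) without controls. The filter required a deposited signal over the median of its array on 3 or more of the 6 arrays, which kept 11603 probe sets, including all 6 Nme probe sets; these were fitted with limma 3.58.1 in R 4.3.3 without the littermate pair as a term. The fit was tested on simulated data. A fit of the unscaled signals was an alternative. The series design names samples of the same number as littermates. After removal of group means, their correlations were 0.271, -0.164 and 0.125 in pairs 1, 2 and 3, and 0.370 between knockout 1 and wildtype 2. Knockout replicate 2, which stood apart, is part of the group mean that was removed. These correlations therefore cannot show whether littermates were more alike than other samples. The p-values of the main fit set the difference of the groups against the spread between samples within a group, with the littermate pair left out.

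The members and gene lists were chosen with earlier results of these data known. Named genes were all members, the 5 highest and 5 lowest precursor genes, and the 3 genes most like each member. Alternatives covered normalization, the constant, the filter, the pair as a block, an intensity trend and leaving out each array. Protein and probe sequences were not used here.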

Additional observations from a re-analysis of the deposited data

How the results depend on the processing

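The count of probe sets past the adjusted threshold was 0 under all 16 alternatives, with 3 to 539 at an unadjusted p of 0.05 in limma. The difference of the Nme1 x_at probe set stayed below 0 in all 16, and it moved beyond the spread between replicates on the signals as deposited, at -2.45. When 1 array was left out it ran from -1.59 to -1.04. On the Nme1 a_at probe set the difference was 0.50 with centring on the 75th percentile, 0.37 with a common trimmed mean and -0.86 on the signals as deposited, and from 0.17 to 0.32 when 1 array was left out. With the littermate pair as a replicate block the log2 differences of the 2 probe sets were -1.33 and 0.25, as without it, and 0 probe sets passed. In the replicate block without knockout replicate 2 they were -1.47 and 0.17. Nme4, Nme6 and Nme7 changed sign without knockout replicate 2, and on unscaled signals all 6 members were below 0. The number and quality of arrays limit all of these values.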

Other observations

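The genes most like Nme1 over the 6 arrays, by Pearson r of normalized log2 signal with its x_at probe set, the one of the highest mean deposited signal, were Mrpl10 (0.956), Lysmd1 (0.955) and Zfp207 (0.951). Over the 5 arrays without knockout replicate 2 they were Cadps (0.999), Cops7a (0.999) and Coq3 (0.998). For Nme2 they were Acbd6, Med25 and Zfpm1 over 6 arrays and Tenm4, Fbf1 and Elp5 over 5, with r of at least 0.994. For Nme4 they were Gtf2ird1, Ttr and Mxd3, then Fez1, Fam122a and Flywch2, and for Nme6 Sv2a, Csad and Cdh22, then Carmil1, Ehd3 and Farsa. For Nme7 they were Qk, Prkca and Sox5, then Exosc10, Eefsec and Tm2d2. For each of the 5 genes, 0 of the 3 named over 6 arrays were also named over 5. Values of this size arise readily when 11603 probe sets are ranked over so few arrays, all of which share 1 normalization.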
